A study of Mus musculus with 6 samples.

Results

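The 9 genes described here encode proteins that make retinoic acid inside a cell, carry it and respond to it: Stra6, Rdh10, Aldh1a1, Aldh1a2, Aldh1a3, Crabp2, Rara, Rarb and Rarg. They were chosen by name from the 46517 genes counted, with earlier results of these data known. All 9 were among the 15862 genes with enough counts to be tested. RNA sequencing was performed on primary renal tubule epithelial cells (RTECs) cultured from kidneys of wild-type FvB mice aged 4 to 6 weeks by the labels, with 3 control (CTL) and 3 TGF-β1 cultures. The study's methods give a slightly younger age and male sex. All cultures were grown in RPMI with 10% serum and 20 ng/ml EGF and moved at 70% confluence to serum-free medium for 24 h. The TGF-β1 cultures then received 50 ng/ml of TGF-β1, a cytokine that drives epithelial dedifferentiation and matrix production, for 24 h. Whether the cultures came from separate animals is not stated, so p-values measure the spread between these cultures. The comparison asks which transcripts of RTECs differ after TGF-β1.

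Retinoic acid is made from vitamin A. STRA6 takes retinol into the cell from its carrier in blood, RDH10 oxidizes it reversibly to retinal, and an ALDH1A enzyme oxidizes retinal irreversibly to retinoic acid. CRABP2 hands retinoic acid to the retinoic acid receptors (RARs) in the nucleus, which bind DNA as heterodimers with retinoid X receptors (RXRs) at paired core motifs and switch from corepressors to coactivators when retinoic acid binds. CYP26 enzymes degrade retinoic acid, and DHRS3 reverses the step of RDH10. In the kidney the pathway is best known for its part in development, where stromal retinoic acid sustains Ret expression and branching of the ureteric bud.

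The libraries held 28313080 to 34183497 counts on genes. Replicate 2 stood apart in both groups: the chi-square of its counts against the other cultures of its group was 32.9 to 62.8 per degree of freedom, against 11.9 and 9.02 between replicates 1 and 3. The summed level of its epithelial markers was lowest and that of its fibroblast markers highest. The 7 tubule epithelium markers summed to 1059 and 915 CPM (counts relative to the normalized library size) in replicate 2 of CTL and TGF-β1. In the other 4 cultures they summed to 1785 to 2635 CPM. Cdh1 and Epcam were lowest in replicate 2 of each group. Cdh16 and Pax8 were lowest in replicate 2 after TGF-β1 but in replicate 3 in CTL. The 8 fibroblast markers summed to 2444 and 2803 CPM in replicate 2, against 1256 to 1966 CPM elsewhere. Of 8 proximal tubule markers, 6 had at most 10 counts in every culture, Slc34a1 and Slc5a2 among them, while Lrp2 had 884 to 2444 counts and Cubn 120 to 162. Of 7 genes listed as a check of the TGF-β1 response, 4 rose and none fell in edgeR's test (none at an unadjusted p under 0.05, with DESeq2 or with limma-voom), where 5.00% and 6.69% of all genes tested did. With the replicate number as a block 5 rose and 1, Itgb6, fell (log2 fold change -1.19, adjusted p = 5.41e-05), where 15.1% and 19.1% of all genes did. Those that rose included Fn1, which encodes fibronectin, at a log2 fold change of 1.04 (adjusted p = 0.00379).

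Classical retinoic acid response elements are direct repeats of a core motif in promoters of target genes. RefSeq promoter windows of GRCm38.p6, from 250 bases before to 50 bases after a transcription start, were available for 6 of the 9 genes and for 39 of 52 other retinoid genes. Rdh10, Aldh1a3 and Crabp2 had no window and were not searched. Both strands were searched for pairs of the core motif AGGTCA or any of its variants (AGTTCA, then GGGTCA, and also GGTTCA) with 1, 2 or 5 bases between them. Repeats with 5 bases between were in 32 of 32851 mouse windows (0.0974%). Only the windows of Rarb and Cyp26a1, among the genes described here, held one, and the 250 bases before those starts are shown because they are the pathway's own receptor and its own degrading enzyme. Capitals mark the repeat, which lies at -53 to -37 in the Rarb window and at -32 to -16, on the opposite strand, in that of Cyp26a1.
Rarb, chr14:16575477-16575726, minus strand: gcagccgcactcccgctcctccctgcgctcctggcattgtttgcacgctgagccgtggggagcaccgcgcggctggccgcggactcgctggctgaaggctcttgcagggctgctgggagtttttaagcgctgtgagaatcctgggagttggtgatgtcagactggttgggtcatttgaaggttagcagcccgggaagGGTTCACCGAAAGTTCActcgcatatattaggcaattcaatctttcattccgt
Cyp26a1, chr19:37697558-37697807, plus strand: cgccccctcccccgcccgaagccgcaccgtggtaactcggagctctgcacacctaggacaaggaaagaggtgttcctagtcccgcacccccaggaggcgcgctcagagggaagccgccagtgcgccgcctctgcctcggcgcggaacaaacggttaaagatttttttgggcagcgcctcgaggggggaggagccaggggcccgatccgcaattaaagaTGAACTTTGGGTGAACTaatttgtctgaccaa
Repeats with 1 or 2 bases between (0.222% and 0.268% of all windows) were in none of the 14 windows of the 6 members that had one. The SMAD box, spelled GTCTG or CAGAC, was in 7 of these 14 windows and in 49.6% of all windows. A match is a run of letters in a window and does not show binding.

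Within the synthesis step, the 3 ALDH1A transcripts did not move together after TGF-β1. Aldh1a3 rose about 4.14-fold, Aldh1a1 fell by a log2 fold change of -2.45, and the most abundant of them, Aldh1a2, did not pass the test. The retinol transporter Stra6 also fell, by a log2 fold change of -0.93. In the edgeR quasi-likelihood test 1 of the 9 genes was higher, where 5.00% of all genes tested were, and 2 were lower, where 6.69% of all genes were. With scaling by library size only, 25.7% of all calls were higher, against 42.8%, and the same members were called. No pairing of the cultures is stated. In deviations from group means, same-numbered cultures, called partners below, correlated at r = 0.34, 0.684 and 0.572. Those of different numbers correlated at -0.617 to 0.215. With the replicate number as a block 3 were higher (15.1% of all genes) and 3 lower (19.1% of all genes), since Crabp2, Rara and Rarb were added. The normalized counts of the groups did not overlap for 2 genes higher with TGF-β1, Aldh1a3 and Crabp2, and for 2 lower, Aldh1a1 and Stra6, where 17.2% and 18.0% of all genes did so in these directions. Counts over 9 genes are too small to set the list apart from these background shares. The median log2 fold change of the 9 was -0.02, beside -0.0028 over all genes tested.

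**Figure D1:**
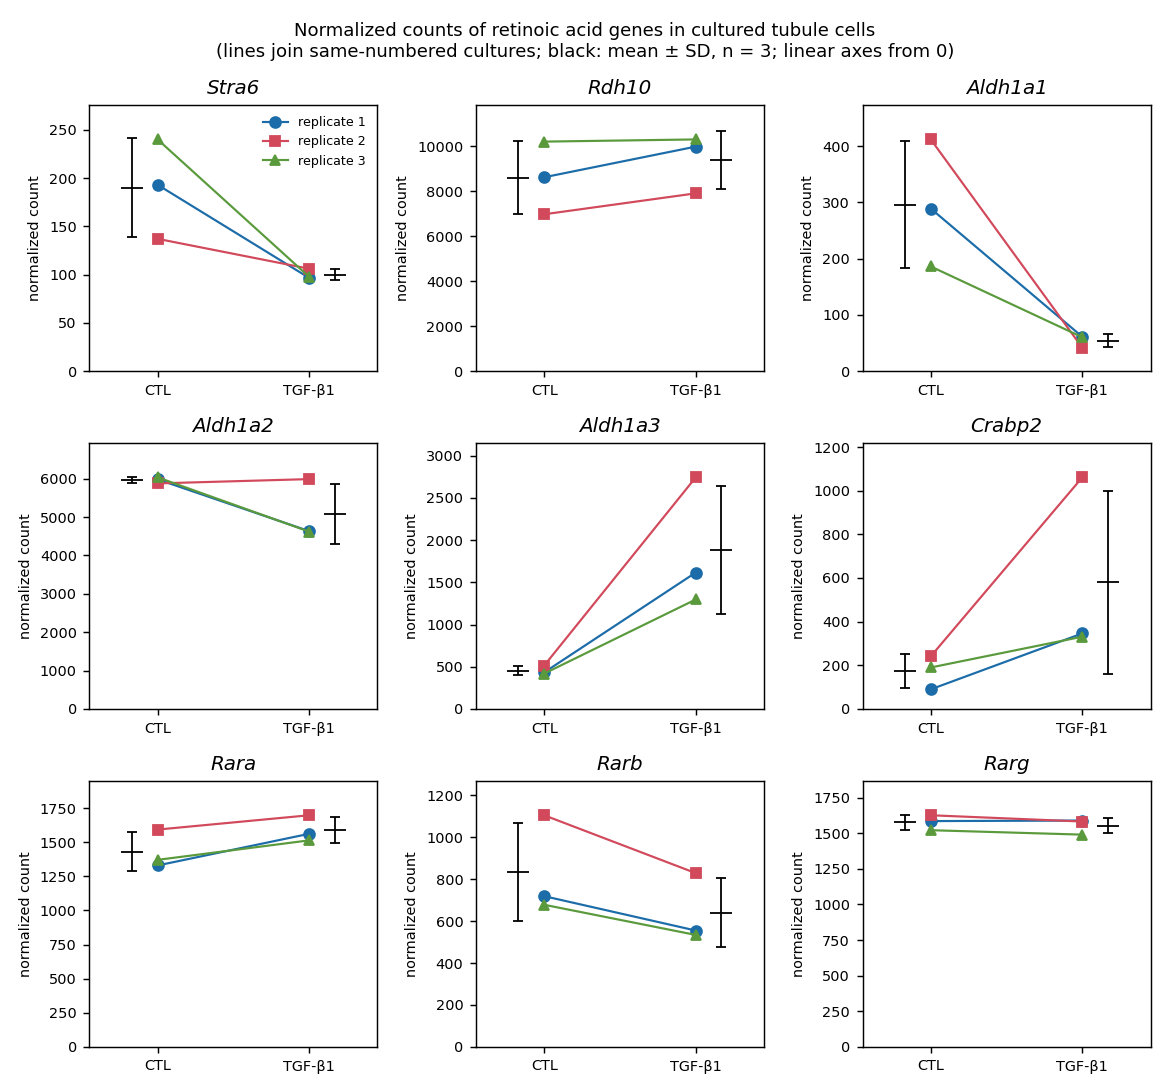
Normalized counts of the 9 genes (linear vertical axes from 0) in each CTL and TGF-β1 culture. Lines join cultures with the same replicate number, and black marks give the mean and SD of 3 cultures. Aldh1a3 and Crabp2 sit higher in all 3 TGF-β1 cultures than in any CTL culture, Aldh1a1 and Stra6 lower, and replicate 2 has the highest Crabp2 and Rarb in both groups.

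Levels between genes were compared per length, as TPM (counts divided by exon length and scaled to a fixed sum). In CTL cultures Aldh1a2 (328 ± 2.78 TPM, SD, n = 3) and Rdh10 (257 ± 46.5) were far above the rest. They were followed by the receptors Rarg (46.1 ± 1.89) and Rara (40.8 ± 4.2), whose ranges overlapped. Rarb (19.7 ± 5.69), Crabp2 (16.3 ± 7.27) and Aldh1a3 (12.3 ± 1.46) came next, with overlapping ranges between neighbours. Aldh1a1 (7.47 ± 2.9) and Stra6 (4.06 ± 1.07) were lowest and overlapped each other. After TGF-β1 the ranges of Rdh10 (271 ± 42.8 TPM) and Aldh1a2 (268 ± 35.8) overlapped. Crabp2 (52 ± 36.2) and Aldh1a3 (48.6 ± 18.5) then overlapped Rarg (43.6 ± 1.08) and Rara (43.6 ± 1.67). Rarb (14.5 ± 3.4), Stra6 (2.05 ± 0.0654) and Aldh1a1 (1.32 ± 0.29) followed in that order, with no overlap between neighbours. In bulk RNA, fewer cells expressing a gene and less RNA per cell cannot be told apart.

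Stra6 (ENSMUSG00000032327.13, chromosome 9 of GRCm38, 58063788 to 58153996, plus strand) encodes the membrane receptor that imports retinol from RBP4. Its normalized counts were 193, 137 and 240 in CTL replicates 1, 2 and 3 and 96.5, 106 and 97.6 after TGF-β1. Every CTL culture was above every TGF-β1 culture, and the spread lay in the CTL group. Its log2 fold change was -0.93 (SE 0.21, adjusted p = 0.0431 by edgeR's quasi-likelihood test), and the blocked fit gave -0.91 (adjusted p = 0.00553). The call rested on small margins: in 5 of the 6 edgeR fits that left out 1 culture it was lost, with adjusted p of 0.0817 to 0.154, and it held without CTL replicate 2 at 0.0205. Limma-voom gave an adjusted p of 0.0617. With the block and both replicate 2 cultures left out, the log2 fold change was -1.15 (adjusted p = 0.000351), without replicate 3 it was -0.70 (adjusted p = 0.0012), and without replicate 1 it was -0.85 and the call was lost (adjusted p = 0.0531).

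Rdh10 (ENSMUSG00000025921.7, chromosome 1, 16105774 to 16133734, plus strand) encodes the main retinol dehydrogenase of embryonic retinoic acid synthesis. It had 8627, 6979 and 10214 normalized counts in CTL and 9991, 7911 and 10311 after TGF-β1. Replicate 2 was lowest in both groups, the groups overlapped, and each TGF-β1 culture was above its same-numbered CTL culture. By edgeR the log2 fold change was 0.13 (95% interval -0.28 to 0.53, adjusted p = 0.665) and 0.14 with the block (adjusted p = 0.0819). The blocked fit called it higher when both replicate 3 cultures were left out (0.20, adjusted p = 0.0131).

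Aldh1a1 (ENSMUSG00000053279.6, chromosome 19, 20492715 to 20643465, plus strand) encodes a cytosolic retinal dehydrogenase that is also widely used as a stem cell marker. It had 289, 412 and 186 normalized counts in CTL and 60.9, 41.4 and 60.1 after TGF-β1. The lowest CTL culture was above all TGF-β1 cultures. The log2 fold change was -2.45 (SE 0.33, adjusted p = 0.011 by edgeR), a 5.45-fold fall, and -2.39 with the replicate block (adjusted p = 0.00162). Without CTL replicate 1 or without TGF-β1 replicate 1 the adjusted p by edgeR was 0.0567 and 0.0572, and it was 0.00843 to 0.0384 in the other 4 fits that left out 1 culture. With the block and without both replicate 2 cultures, the log2 fold change was -1.95 (adjusted p = 6.2e-05). Of the 50-base stretches of Aldh1a1 transcripts, 3.06% also occur in its close relative Aldh1a7, which had 6 to 52 counts a library and a log2 fold change of -1.69 (adjusted p = 0.0495 by edgeR).

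Aldh1a2 (ENSMUSG00000013584.5, chromosome 9, 71215789 to 71296243, plus strand) encodes the principal retinal dehydrogenase of the embryo. The CTL cultures were close together at 5984, 5878 and 6036 normalized counts. The TGF-β1 cultures had 4634, 5990 and 4621, so that replicates 1 and 3 were below all CTL cultures and replicate 2 was level with its CTL partner. Aldh1a2 had a log2 fold change of -0.23 (95% interval -0.49 to 0.028, adjusted p = 0.217 by edgeR), and -0.24 in the blocked fit (adjusted p = 0.0659). This result turned on replicate 2. Without TGF-β1 replicate 2 the log2 fold change was -0.37 (adjusted p = 0.0159 by edgeR), and with the block and without both replicate 2 cultures it was -0.38 (adjusted p = 0.000189). Over all 6 fits that left out 1 culture, adjusted p ranged from 0.0159 to 0.482. The block also gave a call with DESeq2 (adjusted p = 0.0365) and with scaling by library size only (adjusted p = 0.0198).

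Aldh1a3 (ENSMUSG00000015134.13, chromosome 7, 66390890 to 66427517, minus strand) encodes the retinal dehydrogenase known from the developing eye and nose. It had 433, 514 and 419 normalized counts in CTL and 1616, 2744 and 1297 after TGF-β1. All TGF-β1 cultures were well above all CTL cultures, and replicate 2 was the highest of each group. Aldh1a3 had a log2 fold change of 2.05 (SE 0.29, adjusted p = 0.0128 by edgeR) and 2.00 in the blocked fit (adjusted p = 0.000286). Without CTL replicate 1 the adjusted p by edgeR was 0.0743 and without TGF-β1 replicate 1 it was 0.0538, against 0.00771 to 0.041 when any other culture was left out. With the block and without both replicate 2 cultures the log2 fold change was 1.77 (adjusted p = 1.85e-06).

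The make-up of the ALDH1A transcripts was then described within each library as a share of their summed TPM. Aldh1a2 held 94.6%, 93% and 95.4% in CTL and 85%, 81.4% and 87.4% after TGF-β1. Aldh1a3 held 3.35%, 3.99% and 3.25% in CTL and 14.5%, 18.3% and 12% after TGF-β1. Aldh1a1 held 1.35% to 2.99% in CTL and 0.258% to 0.521% after TGF-β1. None of these shares overlapped between groups, and each gave p = 0.1 in a two-sided exact permutation test, the smallest p that 3 against 3 cultures allow. The log2 ratio of Aldh1a3 to Aldh1a1, per length, went from 0.79 ± 0.43 among CTL cultures to 5.17 ± 0.86 among treated ones (n = 3 each, SD). Summed over the 3 genes the CTL level was 348 ± 2.6 TPM and the TGF-β1 level 318 ± 53.6 TPM (n = 3 each, SD, exact permutation p = 0.4). Aldh1a2 was the bulk of ALDH1A mRNA in every culture.

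**Figure D2:**
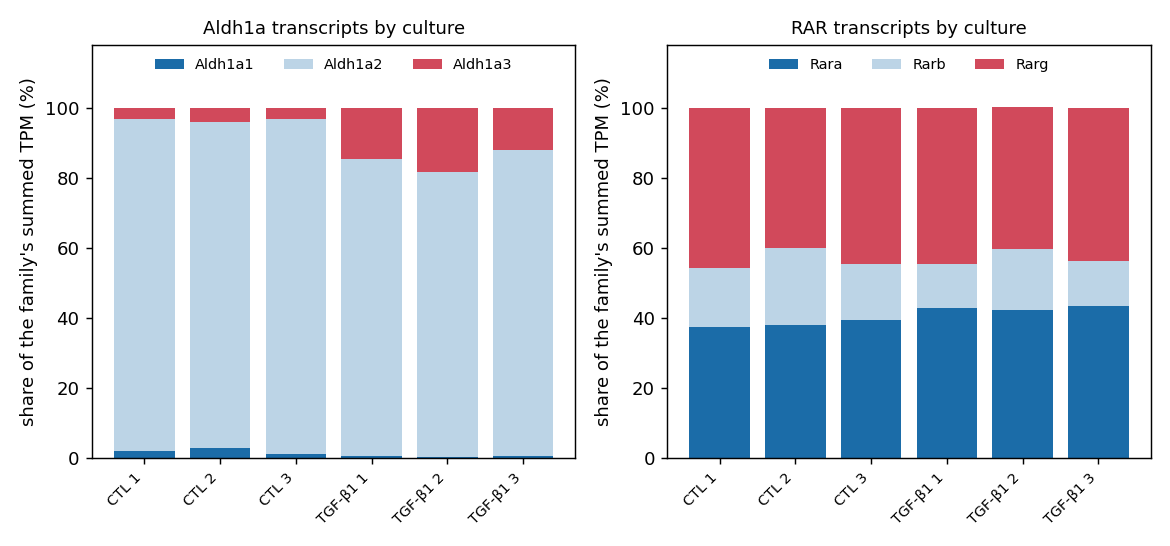
Shares of the summed TPM of the 3 Aldh1a genes (left) and of the 3 RAR genes (right), in percent, with 1 stacked bar for each culture. Aldh1a3 fills 3.25% to 3.99% of the Aldh1a bar in CTL and 12% to 18.3% after TGF-β1, while the RAR bars change by a few percentage points.

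Crabp2 (ENSMUSG00000004885.5, chromosome 3, 87948666 to 87953376, plus strand) encodes the binding protein that delivers retinoic acid to RARs. It had 89.8, 241 and 190 normalized counts in CTL and 346, 1061 and 331 after TGF-β1. The groups did not overlap, and replicate 2 was the highest in each. The log2 fold change was 1.74 (SE 0.59, adjusted p = 0.117 by edgeR), which did not pass. With the replicate block it was 1.66 (SE 0.26, adjusted p = 0.00542), and DESeq2 without the block gave 1.74 (adjusted p = 0.00778). TGF-β1 replicate 2 set much of the size: without it the log2 fold change was 0.96 (adjusted p = 0.215 by edgeR). With the block and without both replicate 2 cultures it was 1.31 (adjusted p = 0.00411). Over the fits that left out 1 culture, none of the 6 gave a call, at adjusted p of 0.122 to 0.3.

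The fibroblast markers, like Crabp2, were highest in replicate 2 of each group, but replicates 1 and 3 of CTL were in the opposite order. Their sum was 1483, 2444 and 1256 CPM in CTL replicates 1, 2 and 3 and 1966, 2803 and 1480 CPM after TGF-β1. Of the 8 fibroblast markers, 6 were tested. None was called by edgeR, DESeq2 or limma-voom, and none had an unadjusted p under 0.05, where 5.00% of all genes rose and 6.69% fell by edgeR. With the block 2 were higher and 2 lower, where 15.1% and 19.1% of all genes tested were. Col1a1 reached 506 to 1463 CPM in CTL and 583 to 1833 CPM after TGF-β1, and Dcn 3.02 to 12.3 and 1.04 to 7.06 CPM. The 2 higher with the block were Col1a1 (log2 fold change 0.37, adjusted p = 0.00628) and Postn (0.47, adjusted p = 0.00171). The 2 lower with the block were Pdgfrb (-0.86, adjusted p = 0.000431) and Dcn (-1.21, adjusted p = 0.0256). The 6 podocyte and mesothelium markers summed to 99 to 169 CPM in CTL and 70.2 to 107 CPM after TGF-β1. Of these 4 were tested, 2 fell by edgeR and all 4 fell with the block, where 6.69% and 19.1% of all genes tested did. The mesothelial genes Msln (log2 fold change -1.34, adjusted p = 0.0131) and Upk3b (-2.20, adjusted p = 0.0122) were the ones that fell by edgeR, as Aldh1a1 and Stra6 did. Wt1, which marks podocytes and mesothelium, was highest in replicate 2 of each group at 106 and 78.5 CPM, and Msln in replicate 3 at 23.1 and 11.1 CPM. Nphs1, which defines podocytes, was at 0.182 CPM or less in every culture. Of the 7 tubule epithelium markers, 2 fell by edgeR and 5 with the block, where 6.69% and 19.1% of all genes tested did. Those that fell by edgeR were Cdh16 (log2 fold change -1.50, adjusted p = 0.00922) and Pax8 (-0.77, adjusted p = 0.00436). The proximal tubule marker Lrp2 fell as well (-0.93, adjusted p = 0.0165 by edgeR). Cubn, the only other proximal tubule marker tested, did not (log2 fold change 0.093, adjusted p = 0.698 by edgeR). The part of these cell types, or of their state, in the levels of Crabp2, Stra6 and the ALDH1A genes was not tested.

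None of the receptors passed the test without the replicate block, also with DESeq2 or limma-voom. Rara (ENSMUSG00000037992.15, chromosome 11, 98927818 to 98974942, plus strand), the broadly expressed receptor, had 1330, 1593 and 1371 normalized counts in CTL and 1562, 1698 and 1514 after TGF-β1. Each TGF-β1 culture was above its CTL partner although the groups overlapped. For Rara the log2 fold change was 0.15 (adjusted p = 0.301 by edgeR) and 0.16 with the block (adjusted p = 0.0447), a call that was absent with DESeq2 and the block (adjusted p = 0.225) and with library size only and the block (log2 fold change 0.08, adjusted p = 0.265). Leaving out both replicate 1 cultures or both replicate 3 cultures also ended it, at adjusted p of 0.377 and 0.058.

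Rarb (ENSMUSG00000017491.8, chromosome 14, 16430839 to 16819156, minus strand) encodes the receptor that is itself a classical retinoic acid target, and its window carries the repeat printed above. It had 719, 1105 and 678 normalized counts in CTL and 555, 829 and 534 after TGF-β1. Replicate 2 was highest in both groups, the groups overlapped, and every TGF-β1 culture was below its CTL partner, by log2 ratios of -0.37, -0.42 and -0.34. The log2 fold change was -0.39 (SE 0.25, adjusted p = 0.381 by edgeR). In the blocked fit it was -0.38 (SE 0.058, adjusted p = 0.00177). With the block it also passed without both replicate 2 cultures (-0.36, adjusted p = 0.00479). Within each group its order of replicates was that of the fibroblast marker sum and of Wt1, and the reverse of that of the tubule epithelium marker sum. The part of any of these cell types was not tested. In the annotation 1793 of the 5265 exonic bases of Rarb (34.1%) lie over exons of Top2b on the other strand. If no read in that stretch was counted, the level of Rarb would be 1.52-fold higher, at 18.8 to 39.8 TPM, and still below Rara and Rarg in all 6 cultures. The strand setting of the counting is not given in the sources used here. Top2b had a log2 fold change of 0.15 (adjusted p = 0.0873 by edgeR, 0.0243 with the block).

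Rarg (ENSMUSG00000001288.13, chromosome 15, 102234938 to 102257517, minus strand), the receptor known from skin and cartilage, had 1585, 1626 and 1521 normalized counts in CTL and 1589, 1582 and 1490 after TGF-β1. All 6 cultures lay close together and the groups overlapped. Its log2 fold change was -0.02 (95% interval -0.15 to 0.10, adjusted p = 0.82 by edgeR).

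As shares of the summed RAR TPM, Rara held 37.5%, 38.1% and 39.3% in CTL and 42.8%, 42.4% and 43.5% after TGF-β1, without overlap (exact permutation p = 0.1). Rarb held 16.1% to 21.9% in CTL and 12.6% to 17.2% after TGF-β1, which overlapped (unpaired exact permutation p = 0.3). Between same-numbered cultures it was lower after TGF-β1, at 16.8% against 12.6%, 21.9% against 17.2% and 16.1% against 12.7%. The share of Rarg averaged 43.4 ± 3.1% for CTL cultures and 43 ± 2.2% for treated ones (n = 3 each, SD, exact permutation p = 0.7). The summed level of the 3 receptors was 107 ± 11.4 TPM and 102 ± 5.08 TPM (n = 3 each, SD, exact permutation p = 0.6).

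**Figure D3:**
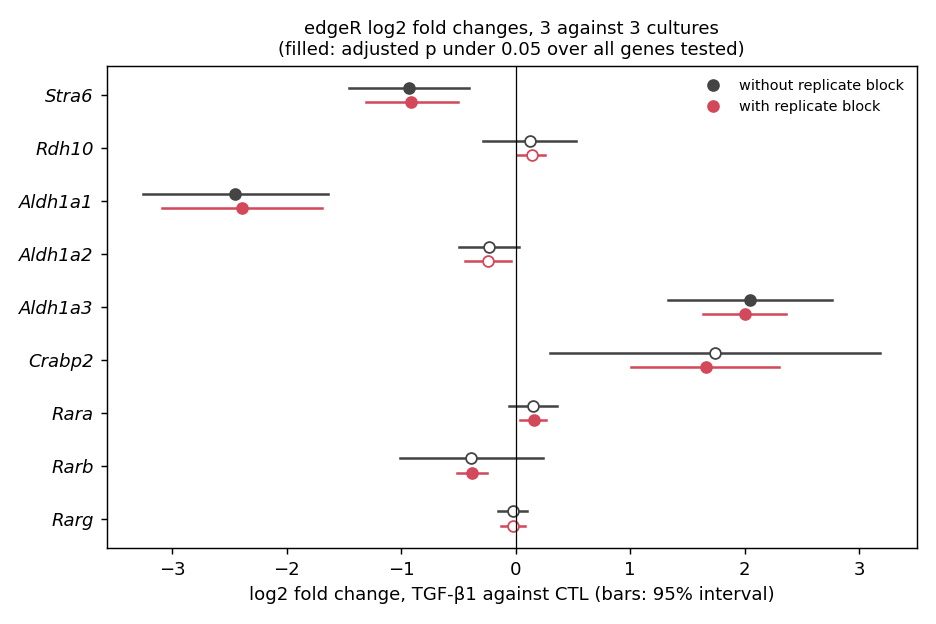
Log2 fold changes of the 9 genes, TGF-β1 against CTL (horizontal axis), from edgeR without (grey) and with (red) the replicate block, with 95% intervals as bars. Filled points have an adjusted p under 0.05 over all genes tested: Stra6, Aldh1a1 and Aldh1a3 in both fits, and Crabp2, Rara and Rarb with the block, where the intervals of Crabp2 and Rarb are much shorter.

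The rest of the pathway was read from 5 lists that together hold 52 genes outside the 9. Of these, 38 were tested, 4 were higher and 5 lower by edgeR, where 5.00% and 6.69% of all genes tested were. With the replicate block 8 were higher and 8 lower, where 15.1% and 19.1% of all genes were. The median log2 fold change of the 38 was -0.06, beside -0.0028 over all genes.

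Of 22 genes of retinoid synthesis, storage and reduction, 14 were tested, none rose and 4 fell by edgeR, where 5.00% of all genes rose and 6.69% fell. At an unadjusted p under 0.05 or with DESeq2 1 gene rose, with limma-voom none did, and with the block 1 rose and 5 fell (15.1% and 19.1% of all genes). Adh1 and Adh7, alcohol dehydrogenases that can oxidize retinol, had 16 to 40 and 14 to 33 counts a library in CTL and 4 and 2 to 4 counts after TGF-β1. All CTL cultures were above all TGF-β1 cultures for both, with adjusted p by edgeR of 0.012 and 0.0127, and levels this close to the floor of 3 counts leave the size of the fall poorly fixed. Rdh12, a retinal reductase, fell from 84, 71.1 and 74.2 to 36.6, 30 and 37.6 normalized counts (log2 fold change -1.13, adjusted p = 0.0128 by edgeR). The calls of Adh1, Adh7 and Rdh12 were lost without CTL replicate 1 or without TGF-β1 replicate 1, at adjusted p of 0.0551 to 0.0739. Retsat, which saturates retinol, fell by a log2 fold change of -0.31 (adjusted p = 0.044 by edgeR), a call lost when any 1 culture was left out, at adjusted p of 0.0821 to 0.183.

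Dhrs3, the reductase that opposes RDH10, was above Aldh1a2 and Rdh10 in every CTL culture, at 409 ± 55.7 TPM among CTL cultures and 334 ± 27.8 TPM among treated ones (n = 3 each, SD). Each TGF-β1 culture was below its CTL partner while the groups overlapped, with a log2 fold change of -0.23 (adjusted p = 0.253 by edgeR, 0.00784 with the block). Rbp4, the retinol carrier that STRA6 binds, was near the limit at 8 to 18 counts a library (log2 fold change -0.44, adjusted p = 0.48 by edgeR). Lrat, which stores retinol as esters, had 0 to 2 counts and was not tested.

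Among 6 genes of retinoic acid binding and clearance, 4 were tested, and the CYP26 enzymes moved in opposite directions. Cyp26a1 had 70.5, 63.4 and 91.6 normalized counts in CTL and 155, 121 and 133 after TGF-β1, all higher than any CTL culture. Its log2 fold change was 0.86 (SE 0.19, adjusted p = 0.0362 by edgeR), and 0.87 with the block (adjusted p = 0.00351). Cyp26b1 had 123, 285 and 61.1 normalized counts in CTL and 19.3, 30 and 13.1 after TGF-β1. It was highest in replicate 2 of each group, all CTL cultures were above all TGF-β1 cultures, and its log2 fold change was -2.91 (SE 0.66, adjusted p = 0.0422 by edgeR). With the block this was -2.84 (SE 0.21, adjusted p = 5.55e-05). Both calls held only without CTL replicate 3 among the 6 edgeR fits that left out 1 culture, over which adjusted p ranged from 0.0333 to 0.153 for Cyp26a1 and from 0.0259 to 0.144 for Cyp26b1. Limma-voom gave Cyp26b1 an adjusted p of 0.0904. The log2 ratio of Cyp26a1 to Cyp26b1, per length, was 0.63, -0.74 and 2.02 in CTL and 4.44, 3.44 and 4.77 after TGF-β1. Fabp5, which carries retinoic acid to another nuclear receptor, had a log2 fold change of 0.62 (adjusted p = 0.292 by edgeR, 0.00941 with the block). Crabp1 had 0 or 1 count in each library.

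The partner receptors Rxra and Rxrb were expressed at 51 ± 0.469 and 58.4 ± 1.52 TPM in CTL cultures and at 44.5 ± 6.79 and 52.9 ± 2.82 TPM in treated ones (n = 3 each, SD), and Rxrg had 0 to 3 counts. Their log2 fold changes were -0.14 (95% interval -0.38 to 0.094) for Rxra and -0.09 (95% interval -0.20 to 0.031) for Rxrb, at adjusted p of 0.399 and 0.302 by edgeR. The normalized counts of the groups overlapped for Rxra. For Rxrb they did not, at 1831 to 1901 in CTL and 1689 to 1818 after TGF-β1, as for 18.0% of all genes in this direction. The blocked fit called Rxra lower when both replicate 3 cultures were left out (-0.22, adjusted p = 0.0102), and Rxrb with scaling by library size only (-0.16, adjusted p = 0.0476). Of 10 RAR corepressors and coactivators, all tested, 2 rose and none fell by edgeR, DESeq2 or limma-voom, and none fell at an unadjusted p under 0.05, where 5.00% of all genes rose and 6.69% fell by edgeR. Nrip1, a corepressor that ligand-bound receptors recruit, rose by a log2 fold change of 0.64 (SE 0.048, adjusted p = 0.00254 by edgeR). The groups did not overlap for Nrip1.

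The list of 16 known retinoic acid targets shares genes with the lists above, Cyp26a1, Cyp26b1, Dhrs3 and Nrip1 among them. Of its genes 13 were tested, 3 rose and 1 fell by edgeR (5.00% and 6.69% of all genes), and 6 rose and 4 fell with the block (15.1% and 19.1% of all genes). Hoxa5, a homeobox gene, rose from 651, 631 and 589 to 1270, 1081 and 992 normalized counts (log2 fold change 0.84, adjusted p = 0.00843 by edgeR) and kept its call whichever culture was left out. Passing by edgeR with the block, and not without it, were Tgm2, a transglutaminase (log2 fold change 0.33, adjusted p = 0.00163), and Ret, the GDNF receptor (0.58, adjusted p = 0.0479). The same held for Meis2, a homeobox gene (-0.47, adjusted p = 0.00171), and Rarres2, which encodes chemerin (-1.88, adjusted p = 0.00889). Without the block the adjusted p of these genes by edgeR was, in this order, 0.198, 0.269, 0.541 and 0.0648. Rarres2 did pass without the block with DESeq2 (adjusted p = 0.0302) and by edgeR with a looser count filter (adjusted p = 0.0411). The blocked call of Ret was lost without both replicate 1 cultures (adjusted p = 0.319) or both replicate 2 cultures (adjusted p = 0.0548). It was also absent with the block and DESeq2 (adjusted p = 0.286) or limma-voom (adjusted p = 0.0533). Rarres2 had only 5 to 7 counts a library after TGF-β1, and its blocked call was lost without both replicate 2 cultures (-1.18, adjusted p = 0.0637). Meis2 was highest in replicate 2 of both groups, like Rarb and Crabp2.

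**Figure D4:**
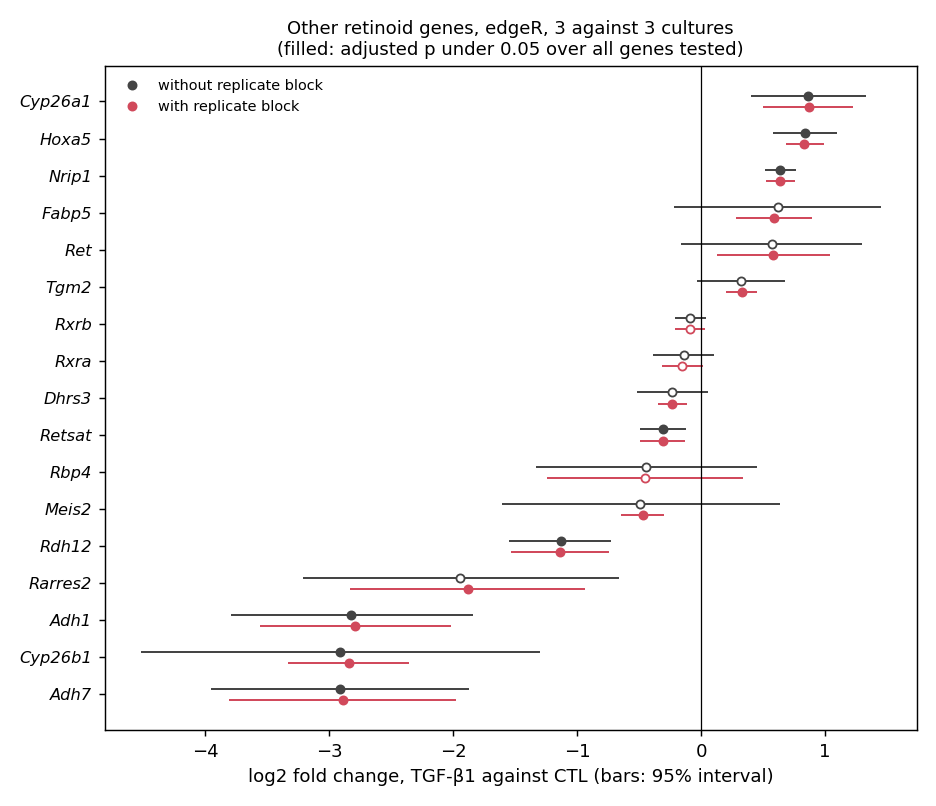
Log2 fold changes, TGF-β1 against CTL (horizontal axis), of 17 tested genes of the other retinoid lists, from edgeR without (grey) and with (red) the replicate block, with 95% intervals as bars and filled points for an adjusted p under 0.05. Cyp26a1 lies at 0.86 and Cyp26b1 at -2.91, and the RXR genes lie close to 0.

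For the 3 members with the lowest adjusted p, the tested genes with a mean of at least 5 CPM were ranked by the correlation of their log2 CPM with the member over the 6 cultures. Most like Aldh1a1 were Steap2, a metalloreductase (r = 0.999), Itpr1, a calcium channel of the endoplasmic reticulum (r = 0.997), and Celf2, an RNA-binding protein (r = 0.997), each lower after TGF-β1 with log2 fold changes of -0.69, -0.45 and -0.92. Most like Aldh1a3 were Wnt10b, a Wnt ligand (r = 0.999), Mtus1, a microtubule-associated protein (r = 0.999), and Cotl1, an actin-binding protein (r = 0.998), with log2 fold changes of 1.57, 0.70 and 1.43. Wnt10b had 114, 124 and 111 normalized counts in CTL and 310, 472 and 254 after TGF-β1, with replicate 2 highest as for Aldh1a3. Most like Stra6 were Traf3ip1 (r = 0.996), Smap2 (r = 0.994) and Btbd3 (r = 0.992), with smaller log2 fold changes of -0.27, -0.11 and -0.35. Of these only Btbd3 passed the test, at adjusted p by edgeR of 0.0647, 0.199 and 0.0322. These are the highest of 10892 or more values over only 6 cultures that share the group difference.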

How the data were processed

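RNA sequencing counts of 6 RTEC cultures were analysed. According to the study's methods, poly(A) mRNA was sequenced as single 50-bp reads. The authors deposited whole-read counts per gene without normalization, made with Trim Galore, STAR 2.4.1d and HTSeq 0.6.1 on GRCm38 (submitters' processing notes). The annotation release and the strand setting are not given in the sources used here. HTSeq's closing lines for reads off genes, on several genes or aligned to several places held 25.4% to 25.9% of each file and were left out. Symbols, positions and union exon lengths came from GENCODE M21, which matched 46005 of 46517 identifiers.

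Counts were fitted in R 4.3.3 with edgeR 4.0.16: filterByExpr, TMM normalization, robust quasi-likelihood F tests (two-sided), and p-values adjusted by Benjamini-Hochberg across the 15862 genes tested, called under 0.05. SE was derived from the F statistic. Normalized counts are counts after TMM scaling. TPM used union exon lengths. The floor is 3 counts in a library (0.0878 to 0.106 CPM without TMM scaling), which, without molecular identifiers, covers counting error only. Single values were compared by exact permutation tests. The scripts were tested on simulated data.

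Neither the labels nor the study's methods state a pairing of cultures. The replicate numbers of the labels were checked for pairing by deviations from group means, over all genes tested. Same-numbered CTL and TGF-β1 cultures correlated at r = 0.34, 0.684 and 0.572, and different numbers at -0.617 to 0.215. The margin was small for number 1, at 0.34 against 0.215 for CTL replicate 1 with TGF-β1 replicate 3. The pairing is thus inferred from these data, and the fit with the replicate block is given beside each result that it changes.

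Alternatives were DESeq2 1.42.0, limma-voom (limma 3.58.1), RLE normalization, library size only, 2 other count filters, the replicate block, leaving out each culture, and the block without both cultures of 1 number. The block with DESeq2, limma-voom and library size only was added after seeing the data. Named genes were the 9 members, every gene of the other retinoid lists called with or without the block, 11 of their genes named whatever their result, and the 3 genes most correlated with each of the 3 members of lowest adjusted p. Some genes that this rule names are not reported here. Fn1 and markers were named as checks, and Aldh1a7 and Top2b for shared sequence. Members and lists were chosen with earlier results of these data known. Figures were drawn with matplotlib 3.10.9. Protein sequences were not used here.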

Additional observations from a re-analysis of the deposited data

How the results depend on the processing

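Of 171 values of the 9 genes under alternatives, 134 kept their direction and side of the threshold, 11 lost and 23 gained a call, and 3 reversed, all for genes without a call: Rdh10 at -0.0018 and Rarg at 0.00082 when CTL replicate 2 was left out, and Rarg at 0.0078 when TGF-β1 replicate 3 was (log2). With 1 culture left out, Rdh10 ranged from -0.0018 to 0.27 and Rarg from -0.048 to 0.0078. Of 356 values of the other 19 genes, 282 were kept, 28 lost, 46 gained and none reversed.

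Counts over all genes, beside 793 higher and 1061 lower, moved with the processing. With library size only, 508 were higher, so that 25.7% of calls were higher against 42.8%, and the median log2 fold change shifted by -0.074. DESeq2 called 1201 higher. The replicate block called 2388 higher and 3037 lower, and the check of its inferred pairing is given with the methods. With the block, leaving out both cultures of number 1 left 1649 lower, of number 2 left 2288 higher and 2718 lower, and of number 3 left 2581 higher and 3254 lower. The block called 1584 and 2057 with DESeq2, 2394 and 3045 with limma-voom, and 1519 and 4048 with library size only. With each culture left out in turn, the higher calls numbered 109 to 516 and the lower 186 to 807, fewest when CTL replicate 1 was left out, with TGF-β1 replicate 1 next.

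Of the 9 genes, 1 was called higher and 2 lower. DESeq2 called 2 higher and limma-voom 1 lower. The replicate block called 3 higher. With it, 2, 3 and 3 were higher without both cultures of number 1, 2 and 3, and 4 were lower without number 2. The block called 2 higher and 4 lower with DESeq2, 3 higher with limma-voom, and 2 higher and 4 lower with library size only. With each culture left out in turn, 0 to 1 were higher and 0 to 2 lower. EdgeR called none of the 9 when either replicate 1 culture was left out, although at an unadjusted p under 0.05 there were 1 higher and 2 lower (CTL) and 2 higher and 2 lower (TGF-β1). The cause of these shifts was not tested. Genes at a few counts, such as Adh1, Adh7 and Rbp4, are limited by depth.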
